A study of Mus musculus with 21 samples.

Results

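Oxidative phosphorylation subunit genes encode the protein parts of the mitochondrial respiratory chain and of ATP synthase. A set of 39 nuclear genes of this kind was chosen by name, out of 21751 protein-coding genes of the GENCODE annotation of the mouse genome (GRCm39). It holds 16 genes of complex I, 4 of complex II, 5 of complex III, the cytochrome c gene Cycs, 8 genes of complex IV and 5 of ATP synthase. A region of open chromatin was given to a member when the nearest start site of any transcript of a protein-coding gene was that gene's. Every annotated transcript of such a gene counted, whether or not the transcript itself was coding. Regions within 1 kb of such a start are called promoter regions, and all others are called regions away from promoters.

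Complex I takes electrons from NADH and complex II takes them from succinate, and both pass them to ubiquinone. Complex III hands them on to cytochrome c and complex IV to oxygen, while complexes I, III and IV pump protons whose return flow drives ATP synthase. Skeletal muscle fibres rely on this chain during sustained running, and endurance training is known to raise its abundance. Several complex IV subunits exist as a ubiquitous isoform and as an isoform of heart and skeletal muscle, here Cox6a2, Cox7a1 and Cox8b.

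Accessibility was measured by ATAC-seq, in which a transposase cuts open DNA, in nuclei taken from M. quadriceps of male wild-type C57/Bl6 mice of 22 to 26 weeks with beads against PCM1, which marks nuclei of muscle fibres. Trained mice ran at will on wheels for 12 weeks and untrained mice had no training, and both then ran once on a treadmill to exhaustion and were killed 0, 6 or 72 h later. Sedentary mice did neither, and no trained group at rest was analysed here, so in trained muscle the effect of training and that of the bout cannot be told apart. The 21 samples form 7 groups of 3, and the labels do not tell if each of the 3 was a different animal.

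The tables used here list only regions that the authors called at a false discovery rate below 0.05 against sedentary muscle. For each region they give a concentration, which is a group's mean read number after normalisation on a log2 scale, with no values per sample, so neither the depth nor the spread between the 3 samples of a group is known and no error can be attached to a value. A difference below is the concentration in exercised muscle minus that in sedentary muscle, on the log2 scale. A region is said to be lost when that difference is negative and gained when it is positive. The absence of a region from a list does not show that it was unchanged. The list held 34078 regions for trained and 21144 for untrained muscle at 0 h, 11779 for trained and 8360 for untrained muscle at 6 h, 2624 for trained muscle at 72 h, and none for untrained muscle at 72 h. All comparisons use the same sedentary samples, and a region has the same sedentary concentration wherever it is listed. Of 10 markers of muscle fibres, 8 had a listed promoter region, with sedentary concentrations of 7.67 to 15.37. Of the markers of other cells in muscle, 2 of 8 endothelial and smooth muscle, 1 of 6 fibro-adipogenic, 1 of 6 immune and 1 of 4 satellite cell genes had one, all with sedentary concentrations between 8.24 and 9.14. Apart from Cd68, which was gained in untrained muscle at 6 h, these marker promoters were listed as lost, and the part of other cells in the values below was not tested. Of all protein-coding genes, 29.1% had a lost promoter region in trained muscle at 0 h, and the share listed in any group was not computed. Concentrations are not scaled for the width of a region. Some muscle fibre regions were far wider than those of other cells, as with Ckm (chr7:19142825-19162414) beside Dcn (chr10:97315150-97315605).

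The promoter letters of 6 members are shown first, as the 250 bases before the start of the canonical transcript in GRCm39, 5′ to 3′ on the strand of the gene. They are shown because base composition around the canonical start differed by listing. The groups were genes with a promoter region listed as lost in both training states, listed only in trained muscle, or not listed. Cox6a2 (chr7:127805560-127805809, minus strand), Cox7a1 (chr7:29883319-29883568, plus strand) and Cox8b (chr7:140480360-140480609, minus strand) are the muscle isoforms of complex IV, and their promoter regions were lost at 0 h in trained and in untrained muscle. Sdhb (chr4:140688252-140688501, plus strand) and Atp5f1b (chr10:127918882-127919131, plus strand) encode parts used in every tissue, and their promoter regions were listed as lost in trained muscle at 0 h but not in untrained muscle. Cycs (chr6:50543558-50543807, minus strand) had no listed promoter region. Capitals mark matches on either strand to the motifs spelled out further on, which are GGGCGG or its reverse complement CCGCCC in Sdhb and Atp5f1b, CAGCTG in Cox6a2 and Cox8b, and TGACGTCA and CGCATGCGC in Cycs.
Cox6a2: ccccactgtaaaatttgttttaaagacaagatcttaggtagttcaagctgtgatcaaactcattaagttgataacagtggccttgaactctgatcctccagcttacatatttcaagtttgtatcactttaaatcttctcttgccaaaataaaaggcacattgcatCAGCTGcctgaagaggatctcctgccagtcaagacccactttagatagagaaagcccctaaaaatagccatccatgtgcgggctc
Cox7a1: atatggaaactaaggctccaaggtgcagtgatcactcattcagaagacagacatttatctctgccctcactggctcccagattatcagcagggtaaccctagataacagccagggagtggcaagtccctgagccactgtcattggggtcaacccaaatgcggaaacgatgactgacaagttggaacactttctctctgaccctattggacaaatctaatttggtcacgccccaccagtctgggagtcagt
Cox8b: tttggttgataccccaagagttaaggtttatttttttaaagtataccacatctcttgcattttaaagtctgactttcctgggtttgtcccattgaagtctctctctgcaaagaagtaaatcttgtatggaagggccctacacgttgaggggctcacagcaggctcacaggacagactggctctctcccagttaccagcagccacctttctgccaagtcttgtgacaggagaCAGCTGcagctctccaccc
Sdhb: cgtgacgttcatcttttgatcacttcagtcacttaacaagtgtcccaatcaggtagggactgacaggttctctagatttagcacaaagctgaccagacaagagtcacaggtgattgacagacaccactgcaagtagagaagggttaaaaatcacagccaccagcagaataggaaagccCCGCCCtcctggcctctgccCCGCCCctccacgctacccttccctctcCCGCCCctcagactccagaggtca
Atp5f1b: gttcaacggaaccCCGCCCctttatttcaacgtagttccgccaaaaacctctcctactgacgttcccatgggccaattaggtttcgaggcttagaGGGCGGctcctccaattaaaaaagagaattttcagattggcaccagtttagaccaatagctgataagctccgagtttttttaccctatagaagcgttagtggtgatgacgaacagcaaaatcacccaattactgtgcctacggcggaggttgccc
Cycs: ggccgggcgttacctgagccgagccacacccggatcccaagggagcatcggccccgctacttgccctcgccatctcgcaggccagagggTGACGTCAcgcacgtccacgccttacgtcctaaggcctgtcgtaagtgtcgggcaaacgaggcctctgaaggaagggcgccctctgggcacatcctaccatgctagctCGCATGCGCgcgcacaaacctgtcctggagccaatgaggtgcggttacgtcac

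Members lost promoter accessibility at 0 h and at no later time in these lists. In trained muscle at 0 h, 20 of the 39 genes (51.3%) had a lost promoter region, against 29.1% of all protein-coding genes. In untrained muscle at 0 h, 7 of 39 (17.9%) had one, against 9.27% of all genes. With 1 start per gene the numbers were 17 in trained and 4 in untrained muscle, and with canonical starts only they were 19 and 5. With the deposited gene names, which lie on another build and hold 15 of the 39 names, they were 6 in trained and 2 in untrained muscle. All-gene shares were not recomputed under these settings. The shares over all genes include many genes that are silent in muscle fibres, and the difference between the shares was not tested. At 6 h, 0 of 39 had a lost promoter region in trained muscle, where 4.46% of all genes did, and 0 of 39 in untrained muscle, where 1.58% did. At 72 h, 0 of 39 had one in trained muscle, where the share of all genes was 1.02%. With promoters drawn within 3 kb of a start, 2 genes had one in trained muscle at 6 h and 1 at 72 h, and with the deposited gene names 5 in trained and 1 in untrained muscle at 6 h and 2 in trained muscle at 72 h did, so the counts of 0 depend on how regions were assigned.

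A gained promoter region was found at 0 of the 39 genes in each list. Over all protein-coding genes this was rare too, with 1.3% in trained and 1.37% in untrained muscle at 0 h, 0.391% in trained and 1.43% in untrained muscle at 6 h, and 0% in trained muscle at 72 h. The map of members by group sets the promoter losses at 0 h beside the changes farther from the starts, which occurred in both directions.

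**Figure D1:**
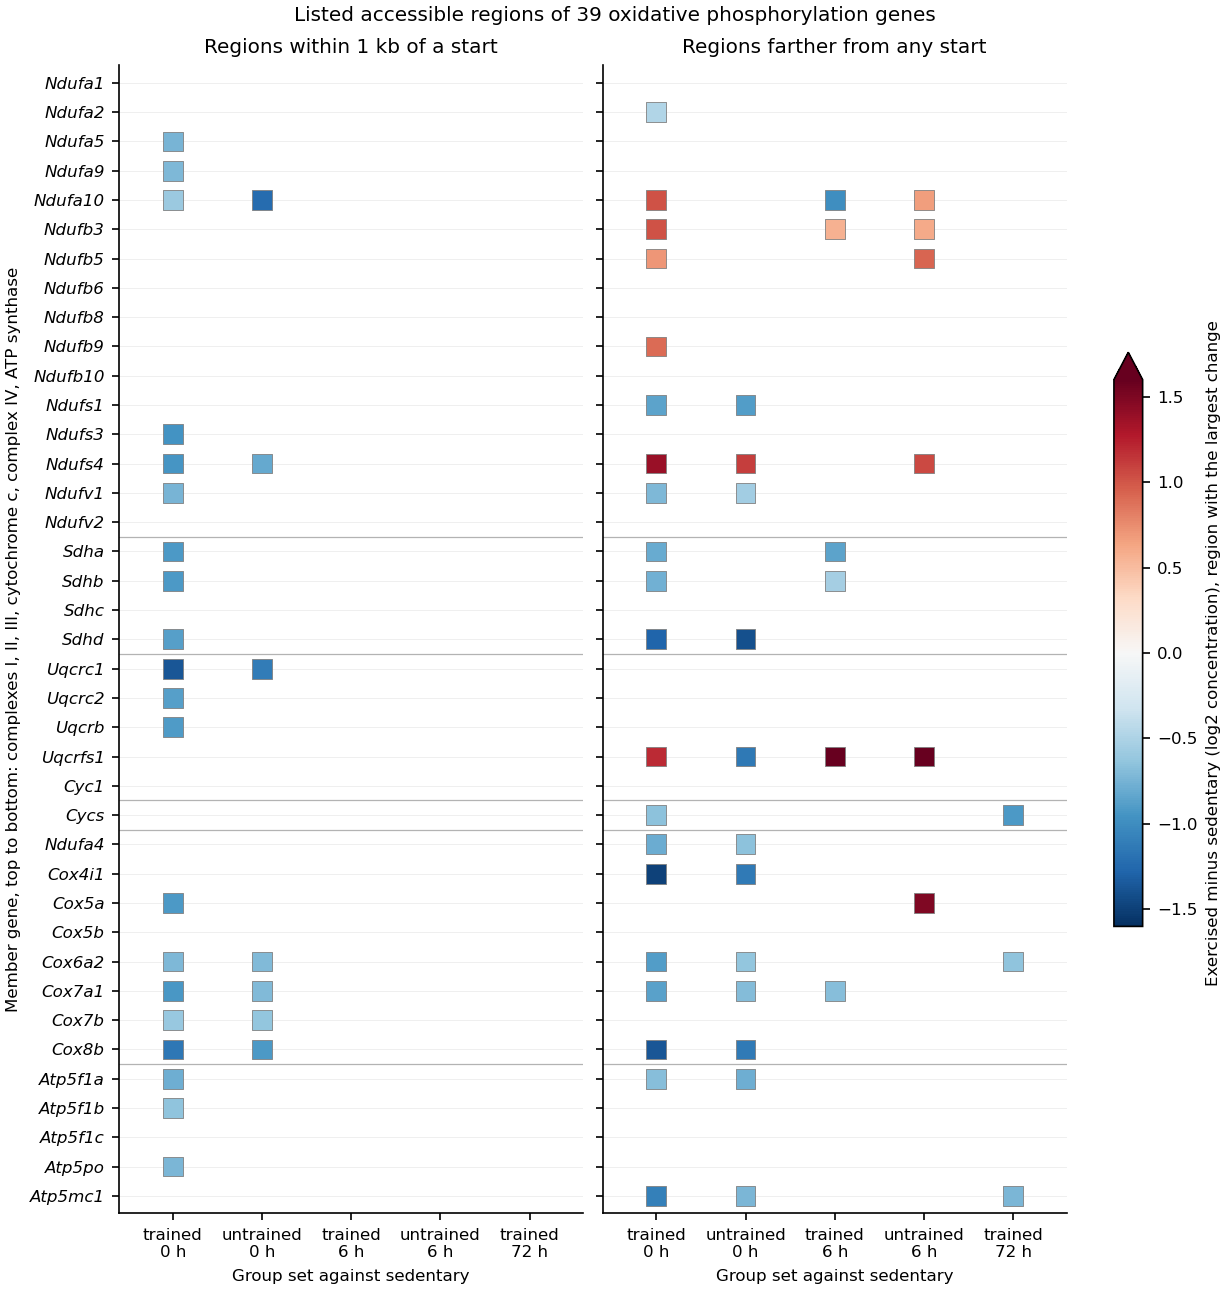
Each row is 1 of the 39 genes, ordered by complex, and each column a group set against sedentary muscle; a square gives the difference in log2 concentration of the listed region with the largest absolute change, within 1 kb of a start on the left and farther away on the right, and an empty cell means that no region was listed. Promoter squares are blue (lost) and stand only in the 0 h columns, 20 genes in trained and 7 in untrained muscle, while red squares (gained) appear only on the right.

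The promoters of the members that were listed lost about as much accessibility as the other promoters of the same lists. The median difference over the 21 lost member promoter regions in trained muscle at 0 h was -0.88, with a range of -1.36 to -0.59, and the median over all lost promoter regions was -0.92. In untrained muscle the 7 member regions had a median of -0.82 and a range of -1.23 to -0.64, and all lost promoter regions had a median of -0.90. Thus the median member promoter kept 54.3% of the sedentary read count in trained muscle and 56.8% in untrained muscle. Lost member promoters in trained muscle had a median sedentary concentration of 11.37, against 10.62 for all lost promoters, and in untrained muscle these medians were 9.94 for members and 9.75 for all.

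Complex IV held 4 of the 7 genes whose promoters were lost in both training states, and these included each of the 3 muscle isoforms. At 0 h, 5 of its 8 genes (62.5%) had a lost promoter region in trained muscle, against 29.1% of all protein-coding genes. In untrained muscle 4 of 8 (50%) had one, against 9.27%. Cox8b, the muscle form of subunit 8, had a promoter region of 2609 bp over its canonical start and part of the gene (chr7:140478813-140481421). Its concentration was 10.21 in trained and 10.46 in untrained muscle at 0 h, against 11.37 in sedentary muscle. Its difference of -1.16 in trained muscle, equal to 44.7% of the sedentary read count, was the largest of a promoter at a canonical start, and the difference in untrained muscle was -0.92. Cox7a1, the muscle form of subunit 7A, had 10.98 in trained and 11.20 in untrained muscle, against 11.91 in sedentary muscle (chr7:29882780-29885099), which gave differences of -0.93 in trained and -0.71 in untrained muscle. Cox6a2, the muscle form of subunit 6A, had 10.18 in trained and 10.19 in untrained muscle, against 10.90 in sedentary muscle (chr7:127804708-127805809), and its differences were -0.72 in trained and -0.71 in untrained muscle.

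Cox7b, a subunit made in all tissues, was the remaining complex IV gene listed for both states, with 8.62 in trained and 8.59 in untrained muscle, against 9.23 in sedentary muscle (chrX:105059096-105059666). Cox5a, a subunit made in all tissues too, was listed only for trained muscle, with 11.49 in trained muscle, against 12.40 in sedentary muscle (chr9:57427716-57429791). Cox4i1 and Ndufa4 had listed regions away from promoters only, and Cox5b had none. Outside the 39 genes, Cox6a1 (-0.77) and Cox8a (-0.83), the ubiquitous partners of Cox6a2 and Cox8b, and Cox7a2l (-0.84), a relative of Cox7a1, had promoter regions lost in trained muscle at 0 h and none listed in untrained muscle. Cox7a2, the ubiquitous partner of Cox7a1, had no promoter region in any list. For those genes the lists hold no value in untrained muscle, so a difference between the training states was not tested.

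**Figure D2:**
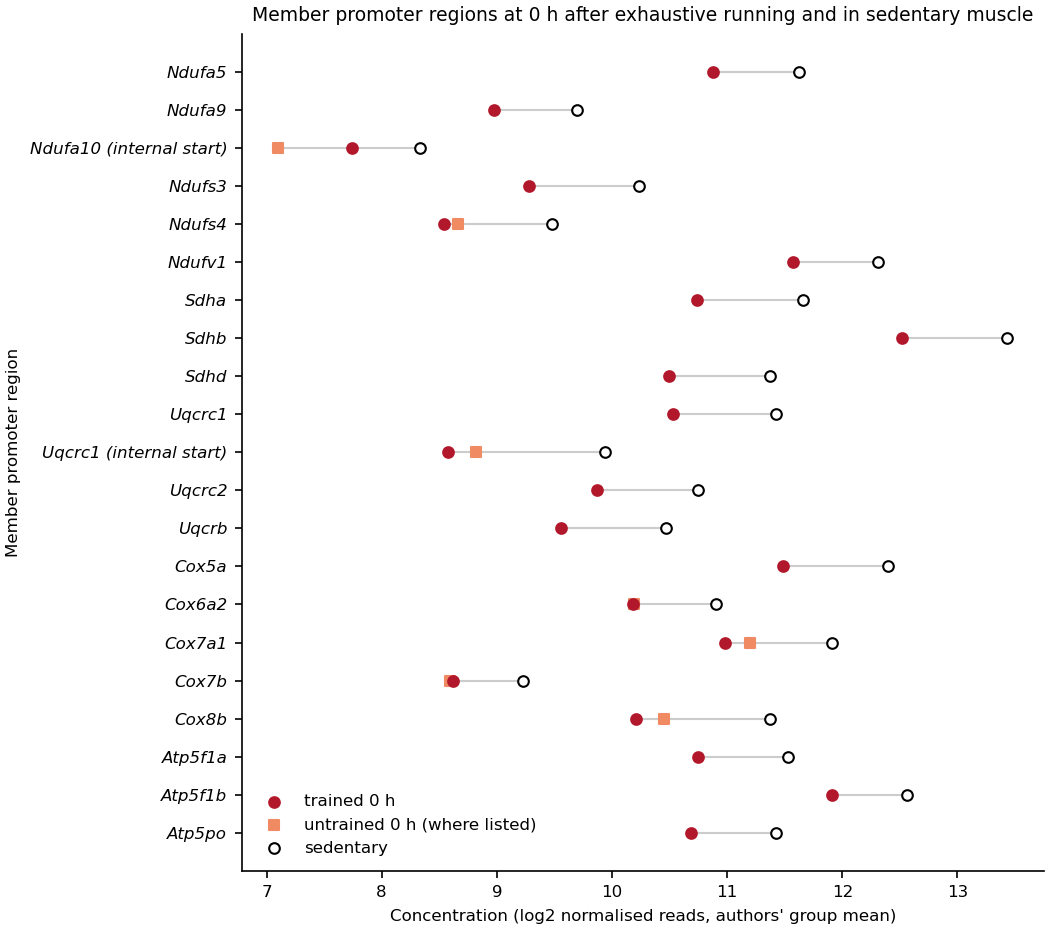
The x axis gives the concentration, the authors' group mean of log2 normalised reads, of the 21 member promoter regions, with filled circles for trained muscle at 0 h, squares for untrained muscle at 0 h where the region was listed, and open circles for sedentary muscle. Every exercised value lies below the sedentary value of its region, and the 7 squares lie close to the circles of the same row except at the internal start of Ndufa10, with 7.74 in trained and 7.10 in untrained muscle.

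In complex I, 6 of 16 genes lost a promoter region in trained muscle and 2 of 16 in untrained muscle at 0 h. That is 37.5% in trained and 12.5% in untrained muscle, near the 29.1% and 9.27% of all protein-coding genes. Differences between complexes were not tested. Ndufs4, an accessory subunit needed for a stable complex, had 8.54 in trained and 8.66 in untrained muscle, against 9.48 in sedentary muscle (chr13:114524112-114524734). Ndufa10, another accessory subunit, had 7.74 in trained and 7.10 in untrained muscle, against 8.34 in sedentary muscle (chr1:92388438-92388973). That region lies in an intron, at the start of a shorter transcript 12621 bp downstream of the canonical start, so it is not the main promoter of the gene. The promoters of Ndufs3 (-0.95), a core subunit, Ndufv1 (-0.74), which binds NADH, and the accessory subunits Ndufa5 (-0.75) and Ndufa9 (-0.72) were listed for trained muscle only. Ndufs1, Ndufa2, Ndufb3, Ndufb5 and Ndufb9 had only regions away from promoters, and Ndufa1, Ndufb6, Ndufb8, Ndufb10 and Ndufv2 had no listed region.

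Complex II, which is also an enzyme of the citric acid cycle, lost promoter accessibility at 3 of its 4 genes in trained muscle and at 0 of 4 in untrained muscle at 0 h. The shares over all protein-coding genes were 29.1% in trained and 9.27% in untrained muscle. Sdha, the subunit that oxidises succinate, had a concentration of 10.74 in trained muscle, against 11.66 in sedentary muscle (chr13:74497780-74498917). Sdhb, the iron-sulphur subunit, had 12.52 in trained muscle, against 13.43 in sedentary muscle, the highest sedentary concentration of the member promoters, over a region of 6247 bp (chr4:140684574-140690820). Sdhd, a membrane anchor, had 10.50 in trained muscle, against 11.37 in sedentary muscle (chr9:50514564-50515729), and the other anchor, Sdhc, had no listed region. The differences of -0.92, -0.92 and -0.88 lay within a narrow band although the regions differed in width and signal.

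Complex III lost promoter regions at 3 of 5 genes in trained muscle and at 1 of 5 in untrained muscle at 0 h. Of all protein-coding genes, 29.1% in trained and 9.27% in untrained muscle did. Uqcrc1, a core subunit, had 2 regions. The region at its canonical start had 10.53 in trained muscle, against 11.42 in sedentary muscle (chr9:108765219-108766601), and was not listed for untrained muscle. The other, 10313 bp downstream of that start over exons and introns, had 8.58 in trained and 8.82 in untrained muscle, against 9.94 in sedentary muscle (chr9:108776014-108777077), and its difference of -1.36 in trained muscle was the largest of the promoter class. Uqcrc2, the other core subunit (-0.88), and Uqcrb, a small subunit near the ubiquinone site (-0.90), were listed for trained muscle only. Uqcrfs1, the Rieske iron-sulphur protein, had regions away from promoters only, and Cyc1, cytochrome c1, had no listed region.

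In ATP synthase, 3 of 5 genes lost a promoter region in trained muscle and 0 of 5 in untrained muscle at 0 h. Again 29.1% of all protein-coding genes did in trained and 9.27% in untrained muscle. Atp5f1b, the catalytic beta subunit, had 11.91 in trained muscle, against 12.56 in sedentary muscle (chr10:127917745-127920433). Its difference of -0.64 was the smallest of the promoters at a canonical start that were listed for trained muscle alone. Atp5f1a, the alpha subunit (-0.79), and Atp5po, a subunit of the stalk (-0.73), changed likewise. Atp5mc1, a gene of the proton-carrying ring, had 1 region away from the promoter, and Atp5f1c, the gamma subunit, had none.

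For 5 of the 20 genes the lost promoter region also held the canonical start of a neighbour within 1 kb. These pairs were Ndufa5 with Asb15, Ndufs3 with Kbtbd4, Sdha with Ccdc127, Sdhd with Timm8b and Uqcrb with Ramacl, and the loss belongs to both genes of a pair alike. Conversely, Ndufa1, Ndufa2, Ndufb3 and Ndufb9 each had a region lost in trained muscle at 0 h within 1 kb of a start that went to a nearer neighbour. When such shared regions were counted for each gene, 24 of 39 genes had a lost promoter region in trained muscle and 7 of 39 in untrained muscle.

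The 7 promoter regions listed in both states allow the trained and untrained values to be set side by side. In 5 of 7 the concentration was lower in trained than in untrained muscle, with a median of trained minus untrained of -0.12 and a range of -0.25 (Cox8b) to 0.64 (Ndufa10). Over all 2438 promoter regions listed in both states the median was -0.15 and 74.4% were lower in trained muscle. Over the 17 member regions away from promoters that were listed in both states, 11 were lower in trained muscle and the median was -0.16, against a median of -0.07 and 60.2% lower over all 14827 such regions. Without values per sample it is not known whether these differences exceed the spread between samples.

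The promoters of the 39 genes differed in base composition between those listed in both states, in trained muscle alone and not at all. In the 300 bases from 250 before to 50 after the canonical start, the count of CpG dinucleotides had a median of 5 (range 2 to 15) for the 7 genes lost in both states, 15 (4 to 34) for the 13 genes listed only in trained muscle and 23 (8 to 45) for the 19 genes with no listed promoter region. The median over all 21751 genes was 11. Cox6a2 and Cox8b held 2 CpG each, Ndufs4 and Cox7b held 5 and Cox7a1 held 6, whereas Ndufa10 (15) and Uqcrc1 (12), whose regions lost in both states lie at internal starts, held more. At the other end stood Cox4i1 with 45, Cox5a with 34 and Cycs with 34. Among the 19 genes, Ndufa1 (29), Ndufa2 (23), Ndufb3 (23) and Ndufb9 (22) have a start within 1 kb of a region lost in trained muscle at 0 h. Those regions went to nearer neighbours, so the group depends in part on how regions were assigned. The median GC content followed the same order, with 48.3% for genes lost in both states, 53.3% for those listed only in trained muscle and 59.7% for those with no listed promoter region, against 54.3% over all genes. These groups were made from the calls, so the order is a description, and the part of GC content in the signal was not tested.

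**Figure D3:**
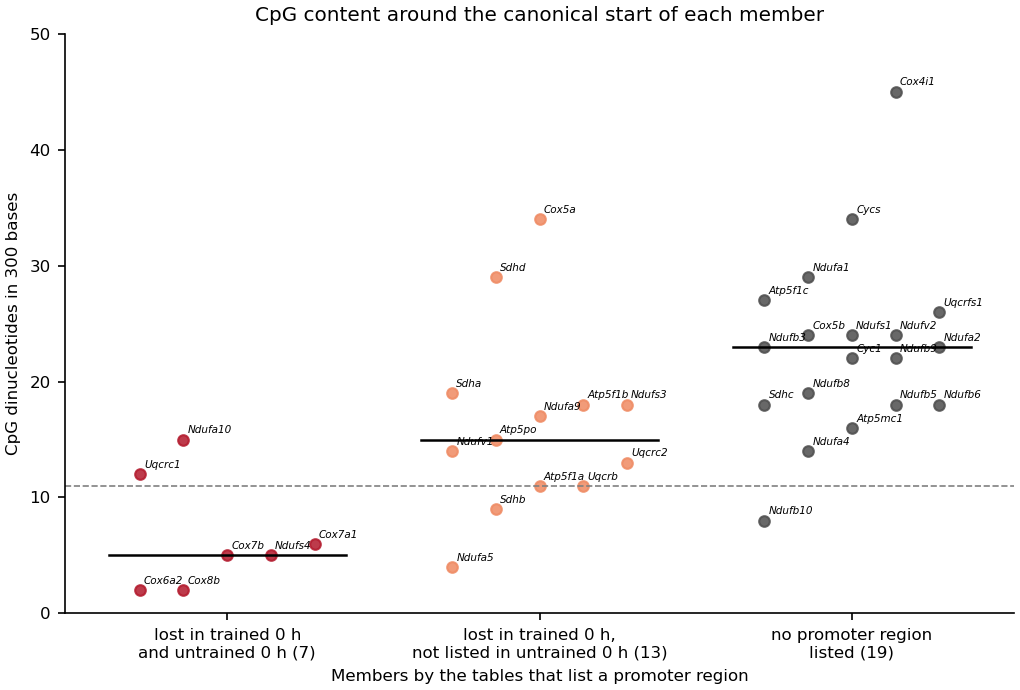
Each point is 1 of the 39 genes, placed by the lists that hold a promoter region of it, and the y axis counts CpG dinucleotides in the 300 bases around its canonical start; black bars are medians and the dashed line is the median over all protein-coding genes. The medians are 5, 15 and 23 from left to right, and the muscle isoforms Cox6a2, Cox8b and Cox7a1 lie at the bottom with 2, 2 and 6. A region given to a nearer neighbour does not count for the gene.

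Motifs of 8 factors were searched as exact letters on both strands of the same 300 bases. The GC box of the SP1 family, GGGCGG, was in 20 of 39 member promoters (51.3%), against 42.5% of all promoters. By listing, it was in 1 of 7 genes lost in both states, 8 of 13 listed only in trained muscle and 11 of 19 with no listed promoter. The E-box CAGCTG, which myogenic factors of the MyoD family can bind, was in 6 of 39 (15.4%), among them Cox6a2 and Cox8b, against 14.8% of all promoters. The core of nuclear respiratory factor 1, GCGCATGCG, was in 1 of 39 (Cycs), against 2.45%, and the letters CCGGAAGT of GA-binding protein were in 0 of 39, against 4.35%. The site of the oestrogen-related receptors, TCAAGGTCA, was in 1 of 39 (Sdhd), against 0.474%, and that of YY1, AAGATGGCG, was in 1 of 39 (Ndufa9), against 1.34%. The CREB site TGACGTCA was in 2 of 39 (Cycs and Uqcrfs1), against 2.45%, and the AP-1 site TGACTCA in 2 of 39 (Atp5f1c and Atp5mc1), against 4.70%. In the printed sequences no match overlapped another, and a match or its lack describes these letters only.

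Away from promoters the 39 genes had 43 listed regions, of which 31 were lost and 12 were gained. In trained muscle at 0 h, 27 were lost and 9 gained, so that 75% of those listed were lost, against 84% over all regions away from promoters. In untrained muscle at 0 h, 18 were lost and 2 gained (90% lost), where the share over all such regions was again 84%. The number gained in untrained muscle was 7, beside 26 lost, with canonical starts only, and 0, beside 17 lost, without regions over 100 kb away. At 6 h, 5 were lost and 2 gained in trained muscle (71.4% lost, against 88.9% over all), whereas 0 were lost and 7 gained in untrained muscle (0% lost, against 50.3% over all). At 72 h in trained muscle 3 were lost and 0 gained (100% lost, against 98.9% over all). With 1 start per gene in place of all transcript starts, 9 regions were lost at 6 h in trained and 3 in untrained muscle, so the count of 0 depends on the starts used. The gained regions had a median sedentary concentration of 7.51 and the lost ones 8.92, close to the 7.60 and 8.88 of all such regions.

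**Figure D4:**
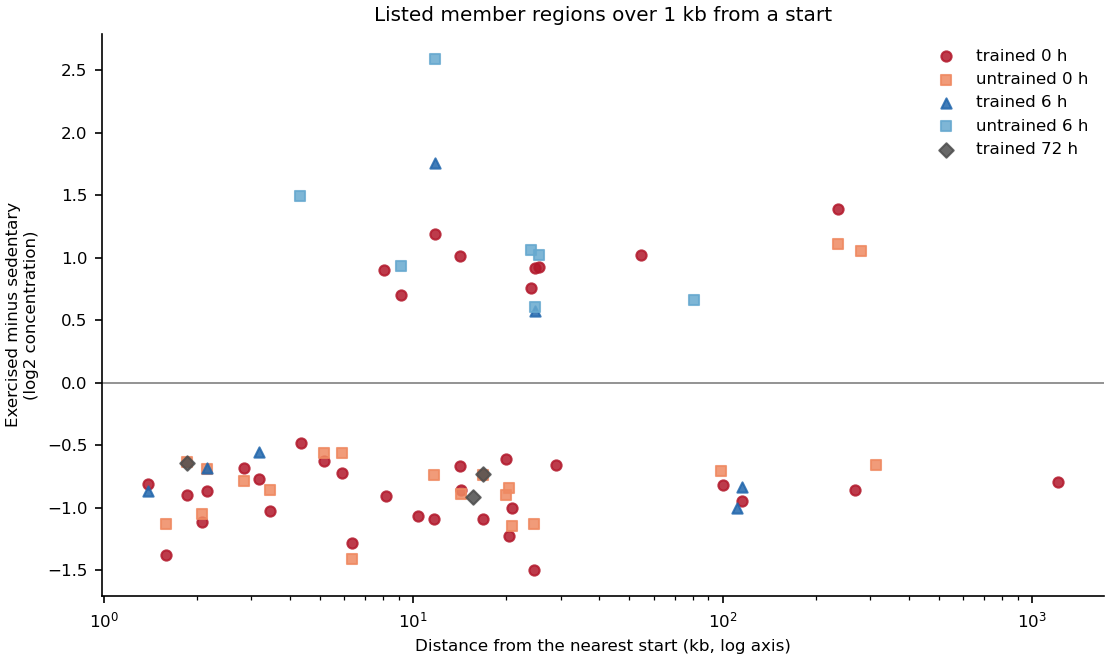
Each point is a listed region away from promoters in 1 group, with its distance from the nearest start of the member on the x axis (kb, log axis) and its difference in log2 concentration from sedentary muscle on the y axis; colour and shape give the group. Points of untrained muscle at 6 h all lie above 0, points of trained muscle at 72 h all lie below, and the highest value is the region near Uqcrfs1 with 2.59 in untrained muscle at 6 h.

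The largest gain near a member was a region of 350 bp at chr13:30717180-30717529, 11753 bp downstream of the nearest start of Uqcrfs1 and outside the gene. Its concentration was 7.03 in trained muscle at 0 h, 7.60 in trained and 8.43 in untrained muscle at 6 h, against 5.84 in sedentary muscle, the lowest sedentary value of any gained region of the 39 genes. The differences were 1.19, 1.75 and 2.59, and the last equals 601% of the sedentary read count. It was not listed for untrained muscle at 0 h or for trained muscle at 72 h. The other listed regions around Uqcrfs1 were all lost at 0 h, with differences between -1.03 and -0.61 in trained muscle and of -1.15, -0.90 and -0.86 in untrained muscle.
The middle 300 bases of the gained region (chr13:30717205-30717504, plus strand) are shown because no other member region changed as much, and they hold none of the 8 motifs.
Uqcrfs1 gained region: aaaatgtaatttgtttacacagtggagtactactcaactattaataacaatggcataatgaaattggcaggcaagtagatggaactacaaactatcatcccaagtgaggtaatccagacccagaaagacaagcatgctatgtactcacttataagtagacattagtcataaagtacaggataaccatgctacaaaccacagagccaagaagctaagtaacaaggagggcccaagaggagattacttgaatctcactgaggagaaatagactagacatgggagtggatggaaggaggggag
Of the 31-base words of this region, 82.2% occur once in GRCm39 and the most frequent occurs 12 times, so part of it is repeated elsewhere in the genome. Of the 64 member regions, 56 had at least 90% of their words in a single copy, and the part of repeated sequence in the signal was not tested.

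Complex I genes had 8 regions gained and 6 lost away from promoters in trained muscle at 0 h, and 5 gained and 0 lost in untrained muscle at 6 h. The share lost was 42.9% in trained muscle at 0 h, against 84% over all such regions. In untrained muscle at 6 h it was 0%, against 50.3% over all, and these differences were not tested. Introns of Ndufs4 held a pair of gained regions. At chr13:114498570-114499030 the concentration was 9.74 in trained muscle at 0 h and 9.83 in untrained muscle at 6 h, against 8.81 in sedentary muscle. At chr13:114500103-114500609 it was 9.05 in trained muscle at 0 h and 9.36 in untrained muscle at 6 h, against 8.30 in sedentary muscle. Both therefore rose at 0 h in trained muscle while the promoter of the same gene fell, and neither was listed for untrained muscle at 0 h.

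Regions near Ndufb3 and Ndufb5, accessory subunits of the membrane arm of complex I, were gained in more than 1 group. Only the one near Ndufb3 was listed at both 0 h and 6 h within 1 training state, which was trained muscle. The region at chr1:58653577-58654062, 24762 bp from a start of Ndufb3, had 9.60 in trained muscle at 0 h, 9.25 in trained and 9.28 in untrained muscle at 6 h, against 8.68 in sedentary muscle. A region 9125 bp from a start of Ndufb5 (chr3:32808030-32809107) had 9.34 in trained muscle at 0 h and 9.57 in untrained muscle at 6 h, against 8.64 in sedentary muscle. Ndufb9 had a region over its 3′ UTR, which overlaps the neighbouring gene Mtss1, with 8.27 in trained muscle at 0 h against 7.36 in sedentary muscle (chr15:58813691-58813999).

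Other gains lay far from the gene. Inside Arl15, which neighbours Ndufs4, a region 235730 bp from the start of Ndufs4 had 8.95 in trained and 8.68 in untrained muscle at 0 h, against 7.57 in sedentary muscle (chr13:114288305-114288855), and a second one 280286 bp away had a difference of 1.05 in untrained muscle (chr13:114243963-114244299). Ndufa10 had a region 54476 bp away with a difference of 1.02 in trained muscle at 0 h and another 80960 bp away with 0.67 in untrained muscle at 6 h. At such distances the nearest start is only a label, and which gene a region acts on was not tested. The single gain outside complexes I and III was in an intron of Cox5a, 4305 bp from the nearest start (chr9:57432921-57433347), with 8.64 in untrained muscle at 6 h against 7.15 in sedentary muscle, a difference of 1.49.

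The regions away from promoters that were given to complex IV genes were all lost at 0 h. There were 11 lost and 0 gained in trained muscle and 9 lost and 0 gained in untrained muscle. Over all such regions 84% were lost in each state. The counts include regions of Ndufa4 as far as 1216526 bp away in trained and 313317 bp in untrained muscle. Downstream of Cox4i1, which encodes the regulatory subunit 4, 5 regions were lost in trained muscle, with differences of -0.62, -1.07, -1.09, -1.23 and -1.50 in order of distance from 5163 to 24611 bp. In untrained muscle 4 of them were listed, with -0.56, -0.74, -0.84 and -1.13 in the same order and the second one missing. The promoter of Cox4i1 was in no list. The last of the 5 was weak, with 5.74 in trained and 6.12 in untrained muscle, against 7.24 in sedentary muscle (chr8:121424502-121424837).

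The flanks of the muscle isoforms were lost together with their promoters, and some of them at later times as well. Upstream of Cox8b, 1591 bp from the start, a region had 9.30 in trained and 9.54 in untrained muscle at 0 h, against 10.67 in sedentary muscle (chr7:140481950-140483602), and a region over its 3′ UTR had 7.81 in trained and 7.88 in untrained muscle, against 8.93 in sedentary muscle. The region 1855 bp upstream of Cox6a2, inside Itgad (chr7:127807414-127807687), had 7.29 in trained and 7.56 in untrained muscle at 0 h and 7.55 in trained muscle at 72 h, against 8.19 in sedentary muscle. The region 2164 bp upstream of Cox7a1 (chr7:29880694-29881405) had 8.35 in trained and 8.53 in untrained muscle at 0 h and 8.54 in trained muscle at 6 h, against 9.22 in sedentary muscle. Both upstream regions were thus lost beyond 0 h in trained muscle, and neither was listed for untrained muscle after 0 h.

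The other losses at 72 h in trained muscle were near Atp5mc1 and Cycs. The region 16833 bp upstream of Atp5mc1 (chr11:95983590-95984492) had 8.45 in trained and 8.80 in untrained muscle at 0 h and 8.81 in trained muscle at 72 h, against 9.54 in sedentary muscle, and was in neither list at 6 h. For Cycs, the soluble electron carrier, a region 15603 bp downstream (chr6:50526899-50527326) had 7.49 in trained muscle at 72 h, against 8.40 in sedentary muscle, and was listed at no other time. A separate region of Cycs had a difference of -0.66 in trained muscle at 0 h. Of the regions lost at 72 h, those near Cox6a2 and Atp5mc1 had also been listed at 0 h.

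At 6 h in trained muscle the losses were those near Cox7a1, Ndufa10, Sdha and Sdhb. An intronic region of Sdha (chr13:74489261-74489459) had 6.85 at 0 h and 6.79 at 6 h in trained muscle, against 7.66 in sedentary muscle, and an intronic region of Sdhb (chr4:140691882-140692414) had 8.32 at 0 h and 8.53 at 6 h in trained muscle, against 9.08 in sedentary muscle. More than 100 kb from Ndufa10, a strong region had 12.11 at 0 h and 12.22 at 6 h in trained muscle, against 13.06 in sedentary muscle (chr1:92269655-92272501), and its neighbour (chr1:92275633-92277109) had 10.70 at 6 h in trained muscle, against 11.70 in sedentary muscle. None of these 4 regions was listed for untrained muscle. At 0 h the 3′ end of Sdhd (chr9:50508154-50508737) had 8.22 in trained and 8.10 in untrained muscle, against 9.50 in sedentary muscle. In trained muscle its difference of -1.28 was larger than the -0.88 of the promoter, which was not listed for untrained muscle.

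The remaining losses were at 0 h. Ndufs1, a core subunit of complex I, had a region 14280 bp away with differences of -0.86 in trained and -0.89 in untrained muscle, and Ndufv1 had one 5908 bp upstream with -0.72 in trained and -0.56 in untrained muscle. The 3′ end of Atp5f1a had -0.68 in trained and -0.78 in untrained muscle. Ndufs4 also had a loss of -0.86 in trained muscle inside Arl15 and one of -0.70 in untrained muscle at the 3′ end, and Ndufa2 had -0.48 in trained muscle, the smallest listed change of the 39 genes. Ndufa4 was named only for regions 313317 bp (-0.66, untrained) and 1216526 bp (-0.79, trained) away. In the second of these 2.8% of the 31-base words occur once in the genome.

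Of the motifs in regions away from promoters, the GC box was in 0 of the 12 gained regions, against 7.58% of all listed regions of this kind when the middle 300 bases were searched. AP-1 letters were in 3 of 12 gained (regions of Cox5a, Ndufa10 and Ndufs4) and in 3 of 31 lost regions, against 11.8% of all. The E-box was in 3 of 12 gained and 10 of 31 lost regions, against 28.4%.

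Other genes of the pathway had promoter losses in trained muscle at 0 h, while in untrained muscle the shares of the 2 longest lists were near the 9.27% of all genes. Of 45 further subunit genes, 21 (46.7%) had a lost promoter region in trained muscle, where 29.1% of all genes did, and 4 (8.89%) in untrained muscle at 0 h. Of 42 assembly factors, 24 (57.1%) had one in trained and 4 (9.52%) in untrained muscle. Of 14 genes for the expression of mitochondrial DNA, 8 had one in trained and 2 in untrained muscle, among them Tfam, which packages that DNA, with 10.32 in trained muscle against 11.53 in sedentary muscle. Of 10 nuclear regulators, 6 had one in trained and 1 in untrained muscle, among them Esrra, a receptor that drives subunit genes, with 12.80 in trained muscle against 13.62 in sedentary muscle. After 0 h the further subunits had 2 lost promoters (4.44%) in trained muscle at 6 h, against 4.46% of all genes, 1 (2.22%) in untrained muscle at 6 h, against 1.58%, and 1 (2.22%) in trained muscle at 72 h, against 1.02%.

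Promoter gains were few among these lists. Ppargc1a, the coactivator PGC-1α that induces mitochondrial genes, had a promoter region with 13.76 in trained and 14.50 in untrained muscle at 0 h, against 12.34 in sedentary muscle. Its differences of 1.42 in trained and 2.16 in untrained muscle were opposite in sign to those of every member promoter listed at 0 h. The Ppargc1a region (chr5:51701308-51726328) is much wider than any member promoter region, of which the widest had 6247 bp. Esrrb had both a gained and a lost promoter region in trained muscle. Atp5pf, a stalk subunit of ATP synthase, had a promoter region that was lost in 4 of the lists, with 9.03 at 6 h and 8.94 at 72 h in trained muscle and 9.11 at 0 h and 9.08 at 6 h in untrained muscle, against 9.74 in sedentary muscle. With canonical starts only, 0 further subunits had a lost promoter in any of these 4 lists, so the call for Atp5pf rests on a start other than the canonical one.

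**Figure D5:**
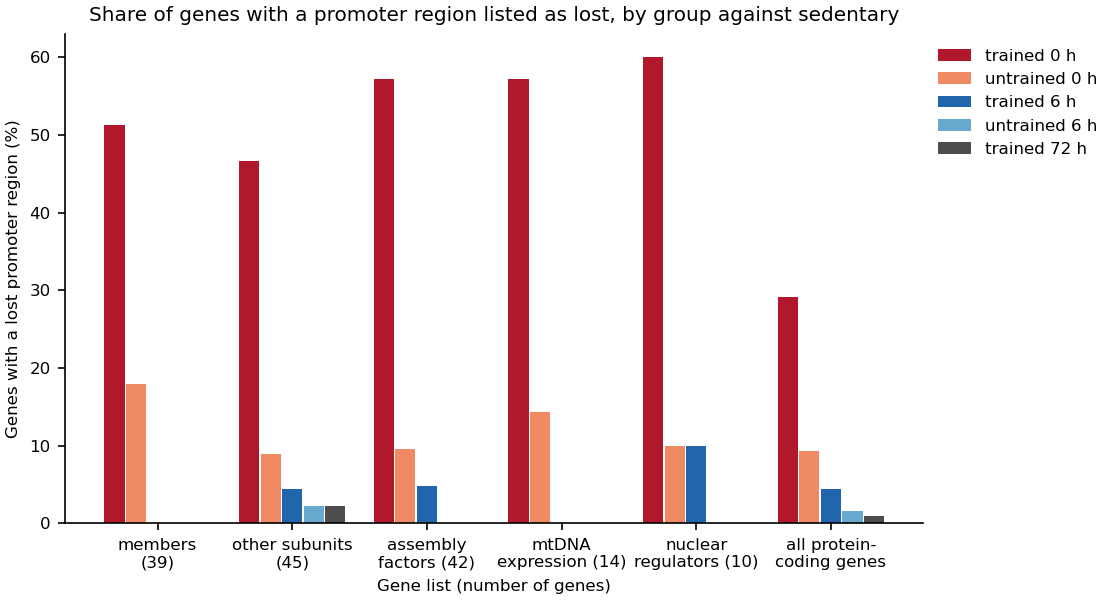
Bars give the percentage of genes in each list that have a promoter region listed as lost, by group against sedentary muscle, with all 21751 protein-coding genes at the right. In each list the trained 0 h bar is the tallest, at 51.3% for the 39 genes and 29.1% for all genes, and the 6 h and 72 h bars of the 39 genes are at 0.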

How the data were processed

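ATAC-seq reads of PCM1+ myonuclei were trimmed by the authors with Trimmomatic 0.39, aligned with Bowtie2 2.4.4 (SAMtools 1.15) on GRCm39, and peaks were called with Genrich 0.6.1. The authors set every exercised group against sedentary muscle in DiffBind 3.4.11, and regions were annotated with ChIPseeker 1.30.3. The deposited tables give each group's mean as a log2 concentration, at a false discovery rate below 0.05, so depth per sample is unknown. Columns with the authors' own fold changes and p-values were not used, nor was the table for untrained muscle at 72 h, which holds no region.

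Concentrations were subtracted here (Python 3.11.15, pandas 2.3.3, NumPy 2.4.6; figures with matplotlib 3.10.9), and no test was run, since there are no values per sample. Regions were assigned to the nearest of 305469 transcript starts (GENCODE M39, from the nearest edge), because the printed gene positions lie on another genome build. The assignment was tested on simulated regions. Every member was accounted for. Concentrations or differences were given for up to 4 members a complex whose promoter was listed in the most tables (ties by the larger difference), for the muscle isoforms, for Ndufb8, Sdhb, Uqcrc2 and Atp5f1a, and for the 10 largest changes away from promoters in each table. Members, lists and motifs were chosen with earlier results of these data known. Letters were read from GRCm39.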

Additional observations from a re-analysis of the deposited data

How the results depend on the processing

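Of 311 values recomputed under 12 alternatives, 272 stayed close (counts within 1.5 times or 0 in both, medians within 0.1) and 39 moved. Counts have no sign, so only the medians could change sign, and none did. The promoter medians covered lost regions only under every alternative, which fixed their sign. In trained muscle at 0 h the number of the 39 genes with a lost promoter was 17 to 24 under every alternative except the deposited gene names, and the median difference was -0.90 to -0.88 under all of them.

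With the deposited gene names and distances, which lie on another build and hold 15 of the 39 names, lost promoters numbered 6 and 2 genes in trained and untrained muscle at 0 h, 5 and 1 at 6 h and 2 in trained muscle at 72 h. The median in untrained muscle at 0 h was then -1.23. Away from promoters, lost and gained regions then numbered 13 and 2 in trained and 5 and 1 in untrained muscle at 0 h, with 3 lost in trained muscle and 0 gained in either state at 6 h. The further subunits had 6 and 2 lost promoters at 0 h and 0 at 72 h.

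With 1 start per gene, 4 genes had a lost promoter in untrained muscle at 0 h, 9 and 3 regions were lost away from promoters at 6 h in trained and untrained muscle, and 1 further subunit had a lost promoter in untrained muscle at 0 h. With canonical starts only, an alternative added after the data were seen, 9 and 4 regions were lost at 6 h and 7 were gained in untrained muscle at 0 h, where the median promoter difference was -0.71. Further subunits then had 0 lost promoters in untrained muscle at 0 h, in both states at 6 h and in trained muscle at 72 h. Without regions over 100 kb away, also added later, 0 regions were gained in untrained muscle at 0 h and 3 were lost in trained muscle at 6 h.

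With promoters within 3 kb, 2 genes had a lost promoter and 3 regions away were lost in trained muscle at 6 h, and 1 gene had a lost promoter at 72 h. With distances from the middle of a region or promoters within 500 bp, 1 further subunit had a lost promoter in trained muscle at 6 h. When every gene near a region took it, 2 further subunits had one in untrained muscle at 6 h and 2 in trained muscle at 72 h. Without the 25% of regions with the lowest signal in each table, 1 region was gained in untrained muscle at 0 h and 1 in trained muscle at 6 h.

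No paired analysis was possible because the tables hold group means. No sample was left out for the same reason. Depth per sample is unknown, so the smallest change that would have been listed is not known either.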
